A study of Solanum tuberosum with 10 samples.

Results

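NDA1 and NDB1 are the 2 genes of alternative NAD(P)H dehydrogenases that the deposited table of potato (Solanum tuberosum, cultivar Desirée) names by symbol. They were chosen by those symbols, on the rows where the annotation belongs to the counted feature itself, and are 2 of 40430 features listed. Each symbol marks 1 row, and both genes were among the 24421 features that passed the filter on low counts. RNA was sequenced from explants, which were stem nodes with 1 leaf cut from plantlets grown in vitro for 4 weeks. Ultrasonicated explants were treated directly after cutting, in glass beakers of 50 ml that held 90 explants in 40 ml of liquid MS (Murashige and Skoog) medium, and then grown on MS medium without hormones. Control explants were cut alike, received no ultrasound and were grown on the hormone-free medium too. The labels do not say whether controls also spent time in liquid, so a part of immersion in any difference between the arms cannot be told apart from ultrasound. Both arms were sampled at 5 times (0 h, 24 h, 48 h, 1 week and 4 weeks), and each of the 10 libraries holds pooled RNA of 3 biological replicates, so each arm has 1 library per time. The tissue is labelled stem at 0 h and 24 h and stem with plantlet from 48 h on, and a change between those times cannot be told apart from a change in the tissue taken.

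Plant mitochondria hold, beside the proton-pumping complex I, single-protein dehydrogenases that pass electrons from NADH or NADPH to ubiquinone without pumping protons. NDA enzymes face the matrix and NDB enzymes face the space between the membranes, where they oxidise cytosolic NADH or NADPH. With the alternative oxidase they form a route that lets respiration run with little gain of ATP, and this route is known for its role in stress and in the balance of reducing power. Potato NDA1 is an internal enzyme of this kind, and its transcript is known to depend on light in potato leaves. Potato NDB1 is an external enzyme that carries an EF-hand, a calcium-binding motif, and its activity with NADPH depends on calcium.

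NDA1 (PGSC0003DMG400004168) lies on the plus strand of chromosome 6, from base 3238431 to base 3242949, a span of 4519 bases. NDB1 (PGSC0003DMG400021670) lies on the plus strand of chromosome 10, from base 4157577 to base 4163576, a span of 6000 bases. These are the table's coordinates, whose genome build is not given in the sources used here. No other listed feature overlapped either gene (0 for each). The next feature after NDA1 begins 1229 bases further on the same strand, and the next after NDB1 lies 3823 bases away on the other strand. Exons and untranslated regions of the models were not used here.

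Total counts ran from 122786170 to 161153911 per library, and levels are given as CPM, counts per 1000000 counts of the library, after scaling by edgeR's TMM factors, which does not correct for gene length. The TMM factor was 0.688 in the ultrasonicated library at 0 h, 0.885 in its control and 0.975 or more in the other 8 libraries, so values of that library depend most on the scaling. The share of rRNA was 2.19% for control explants at 24 h and at most 0.423% in the other 9 libraries. In pooled tissue, fewer cells that express a gene and less of its RNA per cell cannot be told apart. RBCS-2C, a small subunit of Rubisco and thus a marker of green tissue, was present in every library, from 202 to 2060 CPM.

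NDA1, the internal enzyme, was lower in ultrasonicated than in control explants at the 3 early times and higher at both late times. At the 5 times in order, ultrasonicated explants had 6.86, 7.52, 4.33, 23.5 and 21.9 CPM (661, 984, 634, 3349 and 3573 counts). Control explants had 16.4, 12.4, 10.3, 12.4 and 17.7 CPM (1860, 1485, 1869, 1776 and 2684 counts). The 3 lowest of the 10 libraries were thus the early ultrasonicated ones and the 2 highest were the late ultrasonicated ones, while all 5 control libraries lay between them.

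The spread of NDA1 over time was larger in the ultrasonicated arm. Its highest level was 5.43 times its lowest in ultrasonicated explants and 1.72 times in control explants. On the scale of log2 CPM, with 0.5 CPM added, the SD over the 5 times was 1.03 in ultrasonicated and 0.31 in control explants. For the median feature these SDs were 0.59 and 0.52. The difference in SD between the arms was larger for NDA1 than for 96.7% of the 24421 features tested, which is a description of these libraries and no test.

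NDB1, the external enzyme, had its higher levels at 1 week and 4 weeks in both arms. At the 5 times in order, ultrasonicated explants had 20.8, 26.7, 30.1, 51.9 and 35.7 CPM (2003, 3489, 4403, 7396 and 5826 counts). Control explants had 29.1, 21.2, 23.1, 42.5 and 39.6 CPM (3295, 2542, 4194, 6107 and 6012 counts). The 4 libraries of 1 week and 4 weeks were the 4 highest, and neither arm lay wholly above the other. The SD over the 5 times was 0.49 in ultrasonicated and 0.44 in control explants on the log2 scale, a difference larger than in 47.7% of features.

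**Figure D1:**
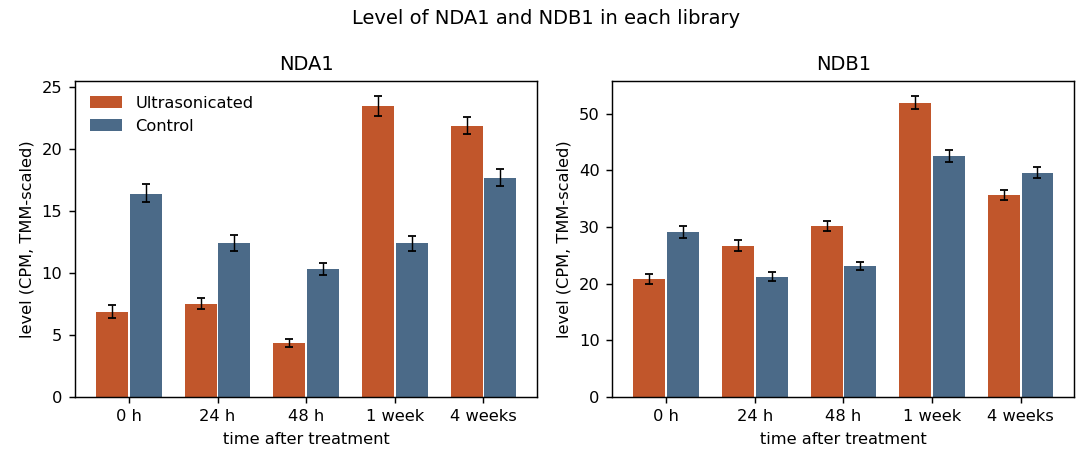
Level in CPM (vertical axes, from 0) of NDA1 and NDB1 against time, with ultrasonicated libraries on the left of each pair and control libraries on the right. Each bar is 1 library and its error bar is the exact Poisson 95% interval of its count, so NDA1 shows its 3 lowest bars in ultrasonicated explants at 0 h, 24 h and 48 h and NDB1 its 4 highest at 1 week and 4 weeks.

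The arms were next set side by side at each time, which asks what ultrasound did at once and during regrowth. There is 1 library per arm and time, so these ratios have no replicate check, and their exact binomial 95% intervals cover counting error only. A gene counted as apart when the whole interval lay beyond 2-fold. At 0 h, where 22.8% of features were apart, NDA1 stood at 0.417 times control in ultrasonicated explants (interval 0.381 to 0.456) and was among the 11.2% that were apart and lower. NDB1 stood at 0.714 times control (0.675 to 0.755) and was not apart. With total counts as the scaling these ratios were 0.324 and 0.555.

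At 24 h NDA1 had 0.607 times its control level (interval 0.559 to 0.658) and NDB1 1.26 times (1.19 to 1.32), neither of them apart, where 12.4% of features were. At 48 h NDA1 was apart at 0.421 times its control level (0.384 to 0.461), among the 5.04% of features apart and lower, at the time with the fewest features apart in all (7.68%). NDB1 stood at 1.3 times there (1.25 to 1.36). The genes thus lay on opposite sides of their controls at 24 h and 48 h.

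At 1 week NDA1 had 1.9 times its control level, with an interval of 1.79 to 2.01 that includes 2, and NDB1 1.22 times (1.18 to 1.26). Features apart made up 17.1% at that time, and neither gene was among them. At 4 weeks NDA1 had 1.24 times (1.18 to 1.3) and NDB1 0.902 times (0.87 to 0.935) its control level, again on opposite sides and not apart, where 12.3% of features were. NDB1 was apart from control at none of the 5 times.

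**Figure D2:**
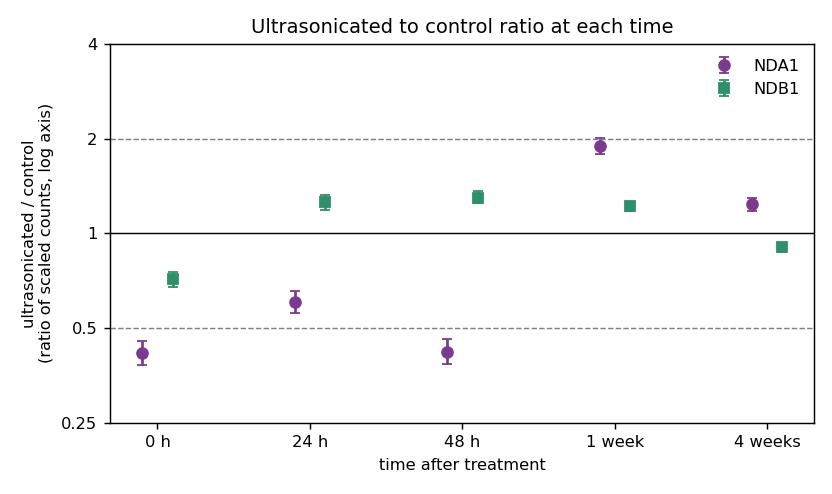
Ratio of the ultrasonicated to the control library (vertical axis, log scale) at each time for NDA1 (circles) and NDB1 (squares), with exact binomial 95% intervals of counting error. Dashed lines mark 2-fold. NDA1 lies at 0.417, 0.607 and 0.421 at the early times and at 1.9 and 1.24 at the late times, and NDB1 stays between 0.714 and 1.3.

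Whether ultrasound shifted either gene in common over the 5 times was tested with time as a block. NDA1 stood 0.41 log2 units below control (log2 difference -0.41, SE 0.364, edgeR quasi-likelihood test with Benjamini-Hochberg adjusted p = 0.999), lower in 3 of 5 pairs. NDB1 stood 0.07 log2 units above (SE 0.176, edgeR adjusted p = 0.999), higher in 3 of 5 pairs. Neither passed, and of all features 0% did, with 815 (3.34%) at an unadjusted p under 0.05. DESeq2 called 53 features and limma-voom 0, and neither member was called by either tool.

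The turn of NDA1 between early and late times was tested as an interaction. The log2 ratio to control was on average 1.69 higher at the 2 late than at the 3 early times (SE 0.416, unadjusted p = 0.00493 and Benjamini-Hochberg adjusted p = 1, both from edgeR). The early-late split was taken from earlier work on these data in which this result was known, so it is no independent support. Unadjusted p-values smaller than that of NDA1 were found for 110 features (0.45%), and 0% of all features passed the adjusted threshold. NDA1 passed with DESeq2 (1.67 log2 units, adjusted p = 0.0382), which called 199 features, and not with limma-voom, which called 0. Over edgeR with each library left out in turn the value ran from 1.37 to 2.0 and the adjusted p from 0.966 to 1. For NDB1 the same difference was -0.01 (SE 0.383, edgeR adjusted p = 1). NDA1's order of signs, lower at the 3 early and higher at the 2 late times, was shared by 781 features (3.2%).

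Because both genes are counted in the same library, the number of NDA1 counts per NDB1 count does not depend on the scaling between libraries. At the 5 times in order it was 0.33 (interval 0.302 to 0.361), 0.282 (0.263 to 0.303), 0.144 (0.132 to 0.157), 0.453 (0.435 to 0.472) and 0.613 (0.588 to 0.639) in ultrasonicated libraries. In control libraries it was 0.564 (0.533 to 0.598), 0.584 (0.548 to 0.623), 0.446 (0.422 to 0.471), 0.291 (0.276 to 0.307) and 0.446 (0.426 to 0.467). These intervals cover counting error alone.

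Ultrasonicated explants had 0.585 times the control ratio at 0 h, 0.483 times at 24 h and 0.323 times at 48 h, then 1.56 times at 1 week and 1.37 times at 4 weeks. Against the control of the same time, the balance of the genes was thus shifted away from NDA1 at the early times and towards it at the late ones, also without any scaling. These ratios reuse the same NDA1 counts and are no separate support. At 0 h (0.33) and 1 week (0.453) the ultrasonicated ratio lay within the range of the control libraries over time, 0.291 to 0.584. The lowest control ratio was that of 1 week. Per base of gene span, introns included, NDA1 had from 0.191 (ultrasonicated, 48 h) to 0.814 (ultrasonicated, 4 weeks) times the counts of NDB1, and so fewer in all 10 libraries. Transcript lengths were not used here, and this comparison of levels between the genes rests on the span.

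**Figure D3:**
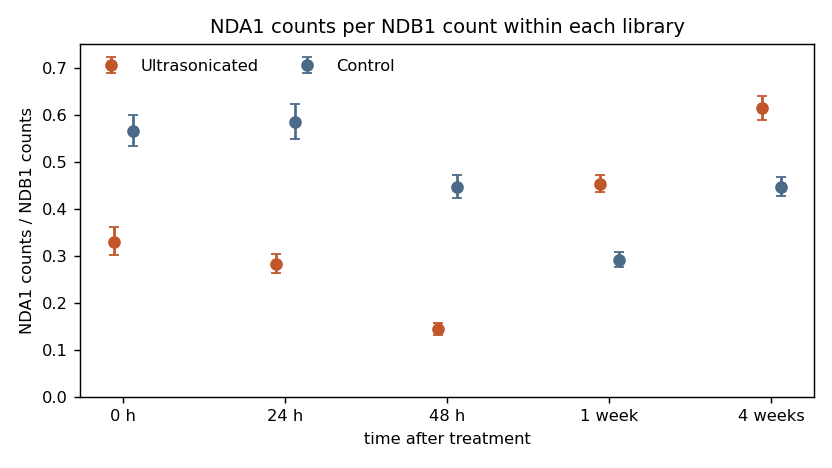
Counts of NDA1 per count of NDB1 within each library (vertical axis, from 0) against time, ultrasonicated to the left of control, with exact binomial 95% intervals. Ultrasonicated libraries fall to 0.144 at 48 h and reach 0.613 at 4 weeks, and control libraries are lowest, at 0.291, at 1 week.

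Changes with time after cutting were tested over both arms, with 2 libraries per time. The shares of all features called by edgeR in the 10 contrasts were 19.9% for 24 h, 20.5% for 48 h, 24.7% for 1 week and 11.7% for 4 weeks, each against 0 h. They were 0% for 48 h, 7.76% for 1 week and 13.8% for 4 weeks against 24 h, 1.29% for 1 week and 8.43% for 4 weeks against 48 h, and 3.56% for 4 weeks against 1 week. Adjusted p-values cover all features within a contrast and not the 10 contrasts together. NDB1 passed in 1 of the 10 contrasts and NDA1 in 0. The split of calls against 0 h depended on the scaling. TMM gave 2311 features higher and 2548 lower at 24 h, 2426 and 2576 at 48 h, 3055 and 2969 at 1 week and 869 and 1989 at 4 weeks. Total counts gave 3751 and 1818, 4635 and 1524, 5085 and 2138, and 2758 and 1455 at those times, with the median feature shifted up by 0.35 to 0.61 log2 units.

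NDB1 rose at 1 week against 0 h, by 0.91 log2 units (SE 0.28, edgeR adjusted p = 0.0488), as 12.5% of features did with TMM scaling, and was higher in both arms. This call stood close to the threshold and ended without any 1 of 9 libraries. Without the ultrasonicated library at 0 h the change was 0.49 (edgeR adjusted p = 0.276), without that at 24 h 0.93 (0.0655), at 48 h also 0.93 (0.074), at 1 week it was 0.78 (0.213) and at 4 weeks 0.92 (0.0648). Without the control library at 24 h it was 0.93 (edgeR adjusted p = 0.0646), at 48 h also 0.93 (0.0731), at 1 week it was 1.05 (0.0936) and at 4 weeks 0.90 (0.0705). It held without the control library at 0 h, where the change was 1.28 (edgeR adjusted p = 0.0227).

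In the order of its times NDB1 was highest at 1 week, followed by 4 weeks, 48 h, 0 h and 24 h. It averaged 47.2 ± 6.64 CPM at 1 week, 37.7 ± 2.74 at 4 weeks, 26.6 ± 4.94 at 48 h, 25 ± 5.89 at 0 h and 24 ± 3.85 at 24 h (SD over the 2 arms). No neighbours in this order passed the test, with edgeR adjusted p = 0.524 for 4 weeks against 1 week, 0.29 for 4 weeks against 48 h, 0.87 for 48 h against 0 h and 0.889 for 24 h against 0 h. The libraries of 1 week still lay above those of 4 weeks, and these above those of 48 h, without overlap, while 48 h, 0 h and 24 h overlapped. The widest gap, 1 week against 24 h, was 0.98 log2 units (SE 0.279, edgeR adjusted p = 0.0751). DESeq2 called it (0.97, adjusted p = 0.0321), among 2285 of 24421 features that it called higher there. With each library left out in turn the edgeR change ran from 0.80 to 1.19, and 2 of the 10 fits passed.

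NDA1 was highest at 4 weeks, followed by 1 week, 0 h, 24 h and 48 h. It averaged 19.8 ± 2.99 CPM at 4 weeks, 17.9 ± 7.88 at 1 week, 11.7 ± 6.77 at 0 h, 9.96 ± 3.45 at 24 h and 7.31 ± 4.21 at 48 h (SD over the 2 arms). Its neighbours did not pass either, and their libraries overlapped at each step, with edgeR adjusted p = 0.931 for 4 weeks against 1 week, 0.357 for 1 week against 0 h, 0.843 for 24 h against 0 h and 0.735 for 48 h against 24 h. The widest gap, 4 weeks against 48 h, was 1.54 log2 units (SE 0.569, edgeR adjusted p = 0.133). DESeq2 called it (1.51, adjusted p = 0.0447), among 1790 of 24421 features that it called higher there, and limma-voom did not (1.47, adjusted p = 0.139). The unadjusted edgeR p of this gap, 0.0272, was under 0.05, as for 26.5% of all features in that contrast. The change was 0.98 without the ultrasonicated library at 48 h.

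**Figure D4:**
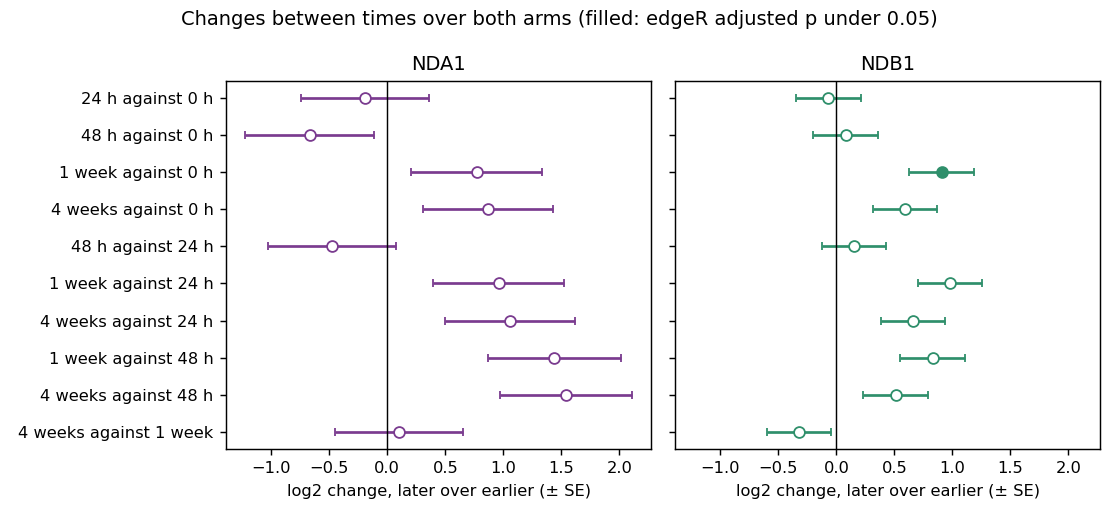
Log2 change of NDA1 and NDB1 (horizontal axes, later time over earlier, with SE) in the 10 contrasts between times, over both arms. The filled point, NDB1 at 1 week against 0 h with 0.91, is the one that passed edgeR's adjusted threshold.

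Followed within an arm, both genes stood higher at 1 week than at 48 h, by unequal amounts. In ultrasonicated explants NDA1 had 5.43 times its 48 h level at 1 week (interval 4.98 to 5.92) and was among the 9.34% of features apart and higher, and NDB1 had 1.73 times (1.66 to 1.79). In control explants NDA1 had 1.2 times (1.13 to 1.28) and NDB1 1.84 times (1.77 to 1.92), where 10.1% of features were apart and higher. NDB1 thus took a like step in both arms, and NDA1 a larger one in ultrasonicated explants. These steps rest on 1 library at each end and were not tested.

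The other steps of NDA1 in ultrasonicated explants were 1.1-fold at 24 h over 0 h (interval 0.993 to 1.21), 0.576-fold at 48 h over 24 h (0.52 to 0.637) and 0.932-fold at 4 weeks over 1 week (0.888 to 0.977). In control explants they were 0.755-fold (0.704 to 0.808), 0.83-fold (0.775 to 0.889) and 1.43-fold (1.35 to 1.52). From 0 h to 4 weeks NDA1 stood 3.19-fold higher in ultrasonicated explants (2.94 to 3.47) and 1.08-fold higher in control explants (1.01 to 1.14). By then 19.2% of features in the ultrasonicated arm and 13.4% in the control arm were apart and higher. NDB1 stood 1.72-fold (1.63 to 1.81) and 1.36-fold (1.3 to 1.42) above its 0 h level in those arms at 4 weeks. These steps from 0 h depend on the scaling. With total counts NDA1 had 4.72 CPM at 0 h, 7.68 at 24 h and 24.9 at 4 weeks in ultrasonicated explants, which are larger rises than with TMM. In control explants it had 14.6 CPM at 0 h, 12.1 at 24 h and 19.3 at 4 weeks.

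RBCS-2C, the green tissue marker, did not keep NDA1's order. Ultrasonicated explants had 0.333 times its control level at 0 h, 1.77 times at 24 h, 0.878 times at 48 h, 1.73 times at 1 week and 0.521 times at 4 weeks. It lay on the same side of control as NDA1 at 0 h, 48 h and 1 week and on the other side at 24 h and 4 weeks, and its part in the NDA1 values was not tested. Of the 17 marker symbols listed for green tissue, starch storage and wounding, the table carried 4. Among the other 3, WAXY, a granule-bound starch synthase, had 1.64, 0.685, 0.335, 0.675 and 2.12 times its control level at the 5 times in order. SS2, another starch synthase, had 1.36, 1.09, 0.528, 1.06 and 1.41 times. SN2, a snakin antimicrobial peptide, had 0.478, 1.11, 1.39, 2.26 and 1.04 times. Each of these lay on the side of NDA1 at some times and on the other side at others.

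Of 43 further symbols listed for electron entry to and exit from the ubiquinone pool, among them alternative oxidases and complex I subunits, the table carried 2. These are IVD (PGSC0003DMG400008113) and 2MBCD (PGSC0003DMG400026901), acyl-CoA dehydrogenases of branched-chain amino acid breakdown, whose electrons also reach ubiquinone. Against 0 h, 1 of the 2 rose at 24 h, as 9.46% of all features did, and neither passed at 48 h, 1 week or 4 weeks. IVD rose at 24 h (1.70 log2 units, SE 0.314, edgeR adjusted p = 0.0104), with 140 CPM in ultrasonicated and 72.5 CPM in control explants. NDB1 had its lowest mean at that time with TMM scaling, but was not called against 0 h (-0.07 log2 units, edgeR adjusted p = 0.889). With total counts NDB1 stood 0.26 log2 units above 0 h there. At 1 week against 24 h IVD fell by 1.77 log2 units (SE 0.316, edgeR adjusted p = 0.0201), as 3.92% of features did. NDB1 stood 0.98 higher in that contrast and did not pass. IVD was also lower at 4 weeks against 24 h (-2.03 log2 units, SE 0.318, edgeR adjusted p = 0.0111), as 7.99% of features were. 2MBCD ranged from 3.52 to 6.13 CPM and passed in 0 of the 10 contrasts.

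Profiles most like those of the members were sought among 15616 other features with a mean of at least 5 CPM, by the root mean square difference of mean-centred log2 levels over the 10 libraries. The nearest to NDA1 was PGSC0003DMG401009127 on chromosome 3 (48391248 to 48395385), at 0.233 log2 units, where the median feature lay at 0.879. It had 4.25, 4.12, 3.03, 10.3 and 10.7 CPM at the 5 times in ultrasonicated explants and 10.1, 6.17, 5.6, 6.02 and 7.15 CPM in control explants. It was lower with ultrasound at the early times and higher at the late ones, which follows from its choice by likeness and is no further support. The second nearest, PGSC0003DMG400025319 (0.259 log2 units), was not higher with ultrasound at 4 weeks, with 81.1 CPM in ultrasonicated and 85.8 CPM in control explants. The nearest to NDB1 was PGSC0003DMG400029993 on chromosome 11 (36978115 to 36981885), at 0.104 log2 units, where the median lay at 0.65. The files do not pair these identifiers with names.

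NDA1 and NDB1 lay 0.575 log2 units from each other by the same measure. Of the 16 other genes with a symbol at that level NDB1 was the nearest to NDA1, yet it took place 749 among all features. The nearest genes with a symbol to NDB1 were PCM6, a calmodulin, at 0.397, and EIF5A2, a translation factor, at 0.421. Of the genes beside the members on their chromosomes, the one after NDA1 (PGSC0003DMG400004167) had 0.647, 0.837, 0.894, 1.24 and 0.919 times its control level in ultrasonicated explants at the 5 times in order. It lay on the side of NDA1 at each time but 4 weeks, and nearer to control than NDA1 throughout. Its one called change against 0 h was a rise at 24 h (0.98 log2 units, SE 0.284, edgeR adjusted p = 0.0469), as for 9.46% of features. The gene before NDA1 (PGSC0003DMG400004169) had at most 1.29 CPM. At 0 h it had 124 counts in ultrasonicated and 0 in control explants. At the later times in order it had 1.19, 1.19, 4.43 and 0.88 times its control level, with intervals that include 1 except at 1 week. This gene lay on the other side of control from NDA1 at each time but 1 week. The gene after NDB1 (PGSC0003DMG400021660) was highest at 1 week, as NDB1 was, with 44.7 CPM in ultrasonicated and 57.1 CPM in control explants. It rose at 1 week against 24 h (1.36 log2 units, SE 0.287, edgeR adjusted p = 0.0322), as 3.83% of features did. Ultrasonicated explants had 0.982, 0.871, 1.48, 0.784 and 0.759 times its control level at the 5 times in order. It thus lay on the other side of control from NDB1 at 24 h and 1 week.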

How the data were processed

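Explants of 2 arms at 5 times were measured by stranded mRNA sequencing, with 1 library of pooled RNA from 3 biological replicates each, per the labels' protocols. The values the authors deposited are raw counts, whole numbers per feature with no normalization. Per the submitters' processing notes the authors used HISAT2 2.1.0, FastQC 0.11.5 and Trim Galore 0.5.0. The sources used here do not give the build, the annotation, the counter or how it treated strand and multiply mapped reads. Reads shared with near-identical paralogs are therefore uncertain.

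Tests were run in R 4.3.3 with edgeR 4.0.16, after filterByExpr by arm and TMM scaling. The model held time and arm, with 4 residual degrees of freedom, and the quasi-likelihood F-test was adjusted by Benjamini-Hochberg over 24421 features at 0.05. An interaction of arm with late times (1 week and 4 weeks) was added for the early against late test. SEs are approximate, the log2 change over the root of F. Replication comes from other times or the other arm, so p-values say nothing of single plants. The error they rest on mixes how pools vary with any change of the ultrasound effect over time, which cannot be told apart. For NDA1 the error in the model of time and arm thus holds its turn between early and late times. Only the code for the ultrasound effect common to the times was tried on simulated data.

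Ratios of single libraries carry exact Clopper-Pearson 95% intervals, and levels exact Poisson ones. PCR duplicates cannot be told from molecules, so these cover counting error only. Alternatives were total counts, median-ratio factors, other filters, DESeq2 1.42.0, limma-voom (limma 3.58.1), rRNA features left out and each library left out. Further named features were, for each member, the 2 nearest profiles overall and among features with a symbol, the chromosome neighbours and the listed pathway symbols, of which the text prints a part. The members, lists and tests were chosen with earlier results of these data known. The steps within an arm, the spread within an arm and the share of features with NDA1's order of signs were added after the data were seen. Of the feature identifiers, 0 matched the reference gene table, and 0 features carried a description.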

Additional observations from a re-analysis of the deposited data

Results flagged for a closer look

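In these libraries, with 1 per arm and time, the ratio of NDA1 to control lay below 1 at the early times and above 1 at the late ones. Ultrasonicated explants had 0.417, 0.607 and 0.421 times the control level at 0 h, 24 h and 48 h, and 1.9 and 1.24 times at 1 week and 4 weeks. The test of this difference gave 1.69 log2 units, late minus early, with an edgeR adjusted p = 1, so it did not pass over all features. DESeq2 gave an adjusted p = 0.0382, as 1 of 199 features that it called, while limma-voom called 0. The early-late split was chosen with this result known, so neither value is independent support.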

How the results depend on the processing

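Each arm and time has 1 library, so no result has replicates within a time. No paired analysis by replicate number was possible because the labels give no replicate numbers, and time was a block in every fit. With total counts the log2 difference of NDB1 was 0.00 between the arms and 0.09 between late and early effects, and the changes at 24 h against 0 h were 0.11 (NDA1) and 0.26 (NDB1), each past 0 to the other side and none called. The stricter filter gave NDB1 0.04 for late against early. The rise of NDB1 at 1 week against 0 h ended with median-ratio factors (0.86, edgeR adjusted p = 0.0566), no filter (0.91, 0.054) and the stricter filter (0.82, 0.0544). It held with total counts (1.30, edgeR adjusted p = 0.0237) and without rRNA features (0.92, edgeR adjusted p = 0.0446). DESeq2 (0.86, adjusted p = 0.0379) and limma-voom (0.93, adjusted p = 0.0404) called it too. DESeq2 added NDA1 for late against early (1.67), NDA1 at 4 weeks against 48 h (1.51) and NDB1 at 1 week against 24 h (0.97). Ratios to control with total counts were 0.324 (NDA1) and 0.555 (NDB1) at 0 h, 1.78 and 1.14 at 1 week and 0.937 (NDB1) at 4 weeks, and NDB1 at 48 h was 1.23 without rRNA features. The cause of these moves was not tested.

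With DESeq2 the counts of all features called were 53 for ultrasound and 199 for late against early, where edgeR gave 0 and 0. Against 0 h they were 7357 (24 h), 7522 (48 h) and 5208 (4 weeks), where edgeR gave 4859, 5002 and 2858. For 48 h, 1 week and 4 weeks against 24 h they were 757, 4382 and 6118 (edgeR 0, 1894 and 3380), for 1 week and 4 weeks against 48 h 2102 and 4607 (edgeR 316 and 2059), and for 4 weeks against 1 week 3523 (edgeR 869).

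With each library left out in turn, the arm difference ran from -0.76 to -0.18 for NDA1 and from -0.03 to 0.22 for NDB1, and late against early from 1.37 to 2.0 and from -0.29 to 0.21. NDA1 ran from -0.71 to 0.43 at 24 h, -1.30 to -0.03 at 48 h, -0.17 to 1.49 at 1 week and 0.31 to 1.45 at 4 weeks against 0 h. Against 24 h it ran from -1.09 to 0.04 (48 h), -0.01 to 1.65 (1 week) and 0.57 to 1.48 (4 weeks), against 48 h from 0.50, without the ultrasonicated library at 1 week, to 2.13 (1 week) and from 0.98 to 2.11 (4 weeks), and from -0.54 to 1.13 for 4 weeks against 1 week. NDB1 ran from -0.45 to 0.30 at 24 h, -0.30 to 0.45 at 48 h, 0.49 to 1.28 at 1 week and 0.22 to 0.97 at 4 weeks against 0 h, from -0.01 to 0.38 for 48 h and 0.80 to 1.19 for 1 week against 24 h. Features called ran from 1282 to 4832, 1373 to 4713, 2406 to 6335 and 921 to 3971 at 24 h, 48 h, 1 week and 4 weeks against 0 h. They ran from 46 to 2979 (1 week) and 80 to 4775 (4 weeks) against 24 h, from 0 to 789 (1 week) and 0 to 3430 (4 weeks) against 48 h, and from 0 to 1645 for 4 weeks against 1 week.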
